A study of Mus musculus with 6 samples.

Results

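The genes that write, maintain and erase DNA methylation were examined for chromatin accessibility in muscle stem cells (MuSCs) with and without Taf4a. They were the methyltransferases Dnmt1, Dnmt3a and Dnmt3b, the maintenance factor Uhrf1, the dioxygenases Tet1, Tet2 and Tet3, the glycosylase Tdg, and Gadd45a and Gadd45b. The peaks examined were the ATAC-seq peaks annotated to one of these 10 genes, plus peaks without a gene that lay between the start and the stop of the gene. This gave 27 peaks of the 75412 in the table, 14 by gene symbol and 13 by position in the gene body, and each of the 10 genes had at least 1. No peak carried the symbol of Tet1, so its limits were taken from GENCODE vM21. A further 12 peaks inside Dnmt3a, Tet1 and Tet3 were annotated to other genes and were not members.

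ATAC-seq marks accessible DNA through the insertion of sequencing adapters by the Tn5 transposase. It was performed on MuSCs freshly isolated from adult C57BL/6 mice, with 3 control and 3 Taf4a sKO libraries, which the study describes as biological replicates, and 50000 cells per library. Taf4a encodes a subunit of the general transcription factor TFIID. The comparison asked whether chromatin accessibility changed when it was lost. In the sKO, Pax7CreERT recombines a floxed Taf4a allele after tamoxifen in Pax7-expressing cells, which are the MuSCs of adult muscle. The other group is titled WT and given the genotype Control in the labels. According to the study its controls were littermates with the same floxed Taf4a alleles, either without Pax7CreERT or carrying it, and some mice of both groups also had a Pax7 ZsGreen reporter. Which of these control genotypes each library came from, and whether controls received tamoxifen, is not given in the sources used here. The cells were sorted from limb and trunk muscle as negative for SCA1, CD45 and CD31 and positive either for Integrin alpha 7 or, from reporter mice, for GFP, and which marker was used for each library is not given in the sources used here. The deposited values are read counts per peak that the authors normalized for sequencing depth and rounded, called normalized read counts here. Judged from the recovered depth factors, between about 27200000 (control 1) and 35200000 (control 2) reads lay in peaks per library. Each library pooled many cells, so a lower value in each cell and fewer cells with the region open cannot be told apart.

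DNMT3A and DNMT3B place methyl groups on CpG dinucleotides that carry none, whereas DNMT1 copies the pattern to the daughter strand after replication, guided by UHRF1, which recognises hemimethylated DNA. TET enzymes oxidise 5-methylcytosine, and TDG excises the oxidised bases so that base excision repair can restore cytosine. GADD45 proteins are stress-responsive adaptors that have been linked to active demethylation and to cell cycle and DNA damage responses. Adult MuSCs are mostly quiescent, a state without the DNA replication at which maintenance methylation acts.

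Sequences are shown for the pair of neighbouring Tet2 intronic peaks that changed in opposite directions, for the peak gained near Gadd45a, and for the promoters of the Gadd45 genes, which had the highest levels. Peaks are given as 300 bases around the peak centre on the plus strand of GRCm38 (mm10), which for the 206 bp Tet2 peak includes flanking bases, and promoters as the 250 bases before the start site. Capitals mark matches on either strand to CCAAT, the box bound by NF-Y, to GGGCGG, the GC box bound by Sp1, or to CAGCTG, an E-box. The CCAAT match in the window of the 206 bp Tet2 peak lies in the flanking bases, outside the peak.
Tet2 intron, chr3:133517403-133517702, lower in Taf4a sKO: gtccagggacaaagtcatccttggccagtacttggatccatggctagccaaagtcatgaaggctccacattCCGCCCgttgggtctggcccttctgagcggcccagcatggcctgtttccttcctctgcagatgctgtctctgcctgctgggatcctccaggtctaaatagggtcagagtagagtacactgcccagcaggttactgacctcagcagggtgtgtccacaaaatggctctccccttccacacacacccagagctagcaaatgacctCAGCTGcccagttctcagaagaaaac
Tet2 intron, chr3:133516188-133516487, higher in Taf4a sKO: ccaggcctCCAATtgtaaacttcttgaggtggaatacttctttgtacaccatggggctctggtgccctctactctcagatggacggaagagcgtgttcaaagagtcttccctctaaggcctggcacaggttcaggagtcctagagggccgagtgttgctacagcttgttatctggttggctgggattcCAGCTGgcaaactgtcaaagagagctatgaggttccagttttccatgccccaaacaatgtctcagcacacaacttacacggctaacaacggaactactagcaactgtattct
Gadd45a downstream, chr6:67027811-67028110, gained in Taf4a sKO: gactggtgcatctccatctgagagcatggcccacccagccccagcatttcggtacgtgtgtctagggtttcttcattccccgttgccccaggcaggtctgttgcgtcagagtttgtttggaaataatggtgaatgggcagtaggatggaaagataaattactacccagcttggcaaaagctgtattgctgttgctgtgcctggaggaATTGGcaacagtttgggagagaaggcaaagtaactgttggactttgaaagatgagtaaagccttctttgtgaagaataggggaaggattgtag
Gadd45a promoter, chr6:67037408-67037657, minus strand, RefSeq: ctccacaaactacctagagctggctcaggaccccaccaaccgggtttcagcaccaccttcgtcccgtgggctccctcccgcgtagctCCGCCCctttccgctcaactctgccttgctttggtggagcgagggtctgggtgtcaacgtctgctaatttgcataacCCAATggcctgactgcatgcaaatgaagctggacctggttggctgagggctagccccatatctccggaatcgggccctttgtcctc
Gadd45b promoter, chr10:80929841-80930090, plus strand, RefSeq: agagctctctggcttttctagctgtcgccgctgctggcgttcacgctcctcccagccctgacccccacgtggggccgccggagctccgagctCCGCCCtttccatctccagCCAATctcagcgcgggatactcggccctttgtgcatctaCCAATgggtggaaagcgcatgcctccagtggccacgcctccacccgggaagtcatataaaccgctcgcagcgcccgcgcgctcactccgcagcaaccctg
The 2 promoters each held 1 GC box, with 1 CCAAT box in that of Gadd45a and 2 in that of Gadd45b. Among 32536 distinct RefSeq promoter sequences of the same length, 33.8% held CCAAT and 33.0% held GGGCGG. In the windows of peaks farther than 1000 bp from a start site or without a gene, the shares were 33.1% for CCAAT, 11.4% for GGGCGG and 31.3% for CAGCTG. No matches overlapped in the sequences shown, and the motifs TGANTCA and TTTNNCGC, also searched, had no match in them. A match describes the letters only.

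Accessibility differed between genotypes over much of the genome. With the authors' normalization the methylation genes did so at a like share of their peaks. By limma, 6 of the 27 member peaks were higher in Taf4a sKO (22.2%), against 28.0% of the 75384 peaks tested, and 4 were lower (14.8%), against 13.9%. The other 17 were not called. All 27 passed the minimum mean value of 10. With the fold threshold of the study, a log2 ratio of group means beyond 1, 1 member was gained against 7.02% of all peaks, and 1 was lost against 5.36%. The median limma log2 fold change of the members was 0.11, the same as that of all peaks tested. The genotypes did not overlap at 8 members that were higher in each Taf4a sKO library and at 7 that were lower, whereas over all peaks this held for 32.3% and 18.0%.

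How many peaks went each way varied with the scaling between libraries. Of all called peaks 66.8% were higher with the authors' normalization, 53.0% with median-of-ratios scaling, 47.6% with scaling to the total in peaks and 49.7% with quantile normalization. Median-of-ratios scaling moved the median log2 fold change of all peaks from 0.11 to -0.01, and then 15 members were called, 7 higher and 8 lower. Of the 75384 peaks tested, 19090 were then higher and 16943 lower. Under the total in peaks 7 members were higher and 10 lower, beside 17664 and 19464 of all peaks. Under quantile normalization 7 members were higher and 11 lower, beside 18697 and 18894 of all peaks. All 10 members called with the authors' normalization were called in the same direction under each of these scalings.

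Member peaks were split by whether they hold a start site. Of the 10 member peaks that held the start site of a protein-coding transcript, 2 were higher and 0 were lower, against 13.1% higher and 6.59% lower among all peaks within 1000 bp of an annotated start site. Of the 17 other members, 4 were higher and 4 were lower, against 31.4% and 15.6% of peaks farther away or without a gene. These counts are with the authors' normalization. Members were thus split by the coding start sites they hold, but all peaks by their annotated distance. By distance, the start-site peaks of Dnmt1 (7618 bp, called higher), Tet3 (2640 bp) and the Dnmt3a 5′ end (1508 bp) lay among the farther peaks. So did the inner Dnmt3a start site, which had no annotated gene. Under the 3 other scalings the Dnmt3b peak and the Dnmt3a 5′ end were lower and the Gadd45a start site higher. Uhrf1 and the Tet3 start site were lower under the total in peaks and quantile normalization. Among the other members, intronic peaks of Dnmt1 (20944735) and Tet2 (133496965) were also lower under the 3 scalings. The limma log2 fold changes of the start-site members lay between -0.22 and 0.32, and those of the other members between -1.24 and 1.36.

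**Figure D1:**
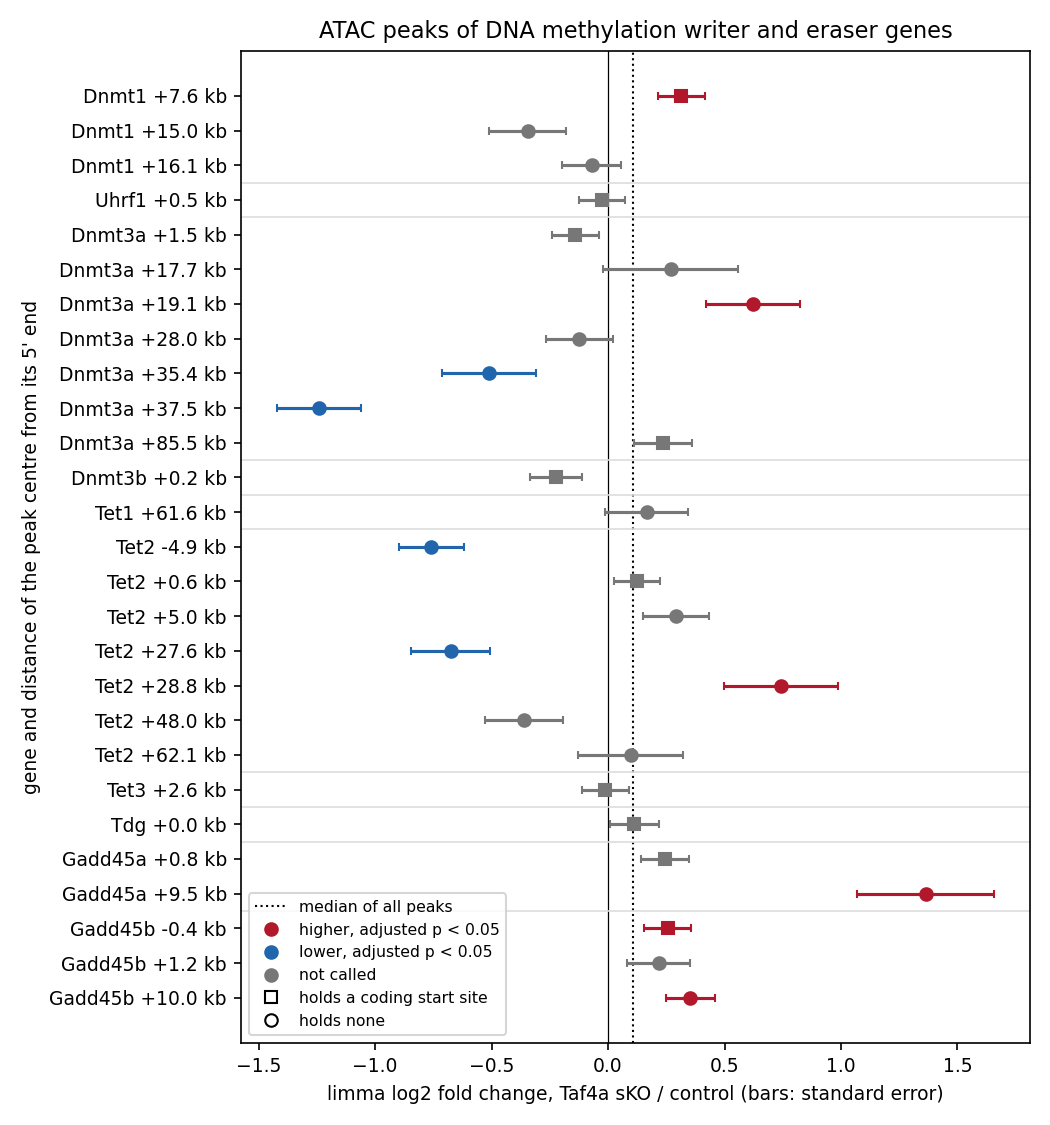
The limma log2 fold change (Taf4a sKO over control, x axis) of the 27 member peaks is plotted with its standard error, by gene and distance of the peak centre from the 5′ end of the gene, with red for the 6 higher and blue for the 4 lower peaks and a dotted line at the median of all peaks, 0.11. Squares, which hold a coding start site, lie between -0.22 and 0.32, and the widest changes are circles, which hold none.

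Among the start sites themselves, accessibility per kb of peak was highest at the Gadd45 genes, Tet2 and Tdg. In control MuSCs the Gadd45b peak had 2205 ± 218 (SD, n = 3) normalized read counts per kb and the Gadd45a peak 2108 ± 239. The Tet2 peak had 1906 ± 164 and the Tdg peak 1729 ± 196 on the same scale. These 4 levels overlapped between neighbours in the order. Below them lay Dnmt3a at its 5′ end (1095 ± 88.4), Tet3 (1004 ± 93.3), Uhrf1 (941 ± 25.6), Dnmt3b (829 ± 97.6), Dnmt1 (827 ± 40.9) and a Tet1 start-site peak annotated to another gene (802 ± 48.2), again with overlap between neighbours. Each control library was higher at Tdg than any was at the next peak in the order, an inner Tet3 start site. The median over all peaks near a start site was 972 normalized read counts per kb, averaged over both genotypes, against 347 over all peaks. The lowest start-site member was an inner Dnmt3a start site with 334 ± 6.7.

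**Figure D2:**
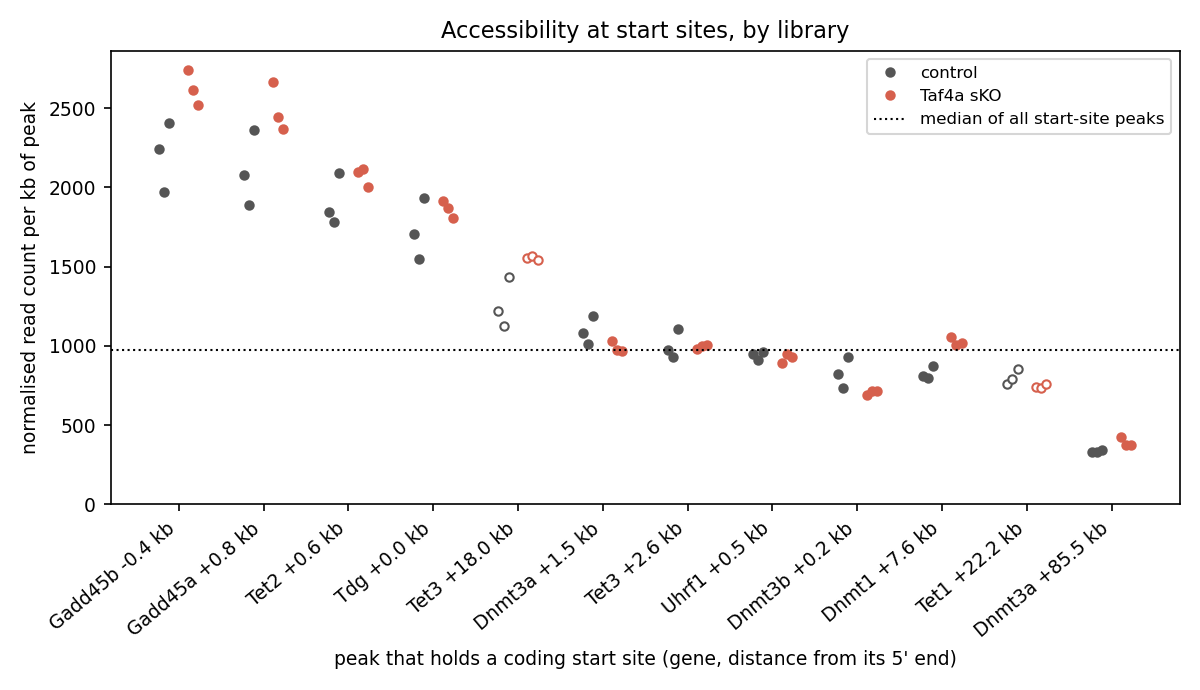
Normalized read counts per kb of peak (y axis, linear from 0) are shown for each library at the peaks that hold a coding start site, ordered by the control mean, with control in grey, Taf4a sKO in red, open circles for peaks that the table annotates to another gene and a dotted line at the median of peaks near a start site, 972. Gadd45b, Gadd45a, Tet2 and Tdg lie above it in every library.

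Dnmt3a, which encodes a de novo methyltransferase, had the largest fall among the members, in an intron 37469 bp from its 5′ end. This peak (chr12:3843172-3843781) had 299, 226 and 180 normalized read counts in control and 101, 89 and 101 in Taf4a sKO MuSCs. The lowest control library was well above the highest Taf4a sKO library. The fold was 0.413 and the limma log2 fold change -1.24 (SE 0.18, adjusted p = 9.05e-06), the smallest adjusted p of the members, and the call held in all 15 alternatives. It was the only member that met the threshold for a lost peak.

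A smaller peak of Dnmt3a 1705 bp before it (chr12:3841257-3841466) also fell. It had 86, 76 and 89 normalized read counts in control and 60, 58 and 57 in Taf4a sKO MuSCs (log2 fold change -0.51, SE 0.20, adjusted p = 0.0453 from limma). The genotypes did not overlap, but the call ended when any one of the 6 libraries was left out, with adjusted p up to 0.123. A peak nearer the 5′ end of the gene, 19135 bp into it (chr12:3824915-3825370), rose. Its values were 83, 70 and 127 in control and 125, 147 and 148 in Taf4a sKO MuSCs (log2 fold change 0.62, SE 0.20, adjusted p = 0.0166 from limma). Here control 3 exceeded the lowest Taf4a sKO library, and without control 2 the adjusted p was 0.138. Dnmt3a introns thus held peaks that changed in both directions.

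The start sites of Dnmt3a were not called with the authors' normalization. At the 5′ end (chr12:3806131-3808899, with 4 coding start sites) the values were 2999, 2805 and 3291 in control and 2859, 2706 and 2676 in Taf4a sKO MuSCs, which overlapped (log2 fold change -0.14, SE 0.10, adjusted p = 0.276 from limma). This peak was lower under the 3 other scalings, with a log2 fold change of -0.25 and an adjusted p of 0.00016 under median-of-ratios scaling. The inner start site (chr12:3890820-3892161) had 442, 443 and 458 against 573, 506 and 506 (log2 fold change 0.24, adjusted p = 0.132 from limma), and was higher without control 3 (adjusted p = 0.0483). The remaining 2 intronic peaks had log2 fold changes of 0.27 and -0.12, with overlapping genotypes.

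Among peaks near the start sites of other genes, the 3 whose values correlated best with the lost Dnmt3a peak over the 6 libraries were those of Tcf24 (Pearson r = 0.995), Dach2 (0.992) and Gm6133 (0.990), out of 11994 such peaks within 1000 bp of a start site. A correlation does not reflect the size of a change. Mean values in control and Taf4a sKO were 687 and 609 for Tcf24, 76.7 and 38.7 for Dach2 and 149 and 103 for Gm6133. Those of the Dnmt3a peak were 235 and 97. The coefficients are descriptions over 6 points in 2 genotypes and the same libraries, chosen as the highest of many.

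Dnmt1, which maintains methylation through cell division, rose at its start-site peak. The peak (chr9:20951346-20953194) holds 3 coding start sites. Its values were 1502, 1470 and 1614 in control and 1958, 1859 and 1886 in Taf4a sKO MuSCs. Each Taf4a sKO library was above each control library, and the fold was 1.24 (limma log2 fold change 0.32, SE 0.10, adjusted p = 0.0135). The adjusted p went up to 0.0739 when a library was left out, and the call ended without control 1, Taf4a sKO 1 or Taf4a sKO 3. The 2 peaks in introns farther into Dnmt1 were not called. The first had 149, 150 and 165 in control and 132, 129 and 105 in Taf4a sKO MuSCs (log2 fold change -0.35, adjusted p = 0.101 from limma), with genotypes apart, and was lower under the 3 other scalings. The second had a log2 fold change of -0.07 with overlapping values, and was lower under quantile normalization (-0.28, adjusted p = 0.0248 from limma).

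Dnmt3b, the other de novo enzyme, and Uhrf1 had 1 peak each, both over their start sites, and neither was called. Dnmt3b (chr2:153649007-153650242) had 1018, 907 and 1148 normalized read counts in control and 856, 882 and 883 in Taf4a sKO MuSCs. Every Taf4a sKO library was lower, but the difference did not pass the threshold (log2 fold change -0.22, SE 0.11, adjusted p = 0.118 from limma), and with median-of-ratios scaling it did (log2 fold change -0.34, adjusted p = 0.00121). Uhrf1 (chr17:56303080-56304634) had 1473, 1420 and 1498 against 1388, 1474 and 1450, a log2 fold change of -0.03 (SE 0.10), with overlapping values. It was lower under the total in peaks and under quantile normalization, with log2 fold changes of -0.17 and -0.18 (adjusted p = 0.0403 and 0.0329 from limma).

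**Figure D3:**
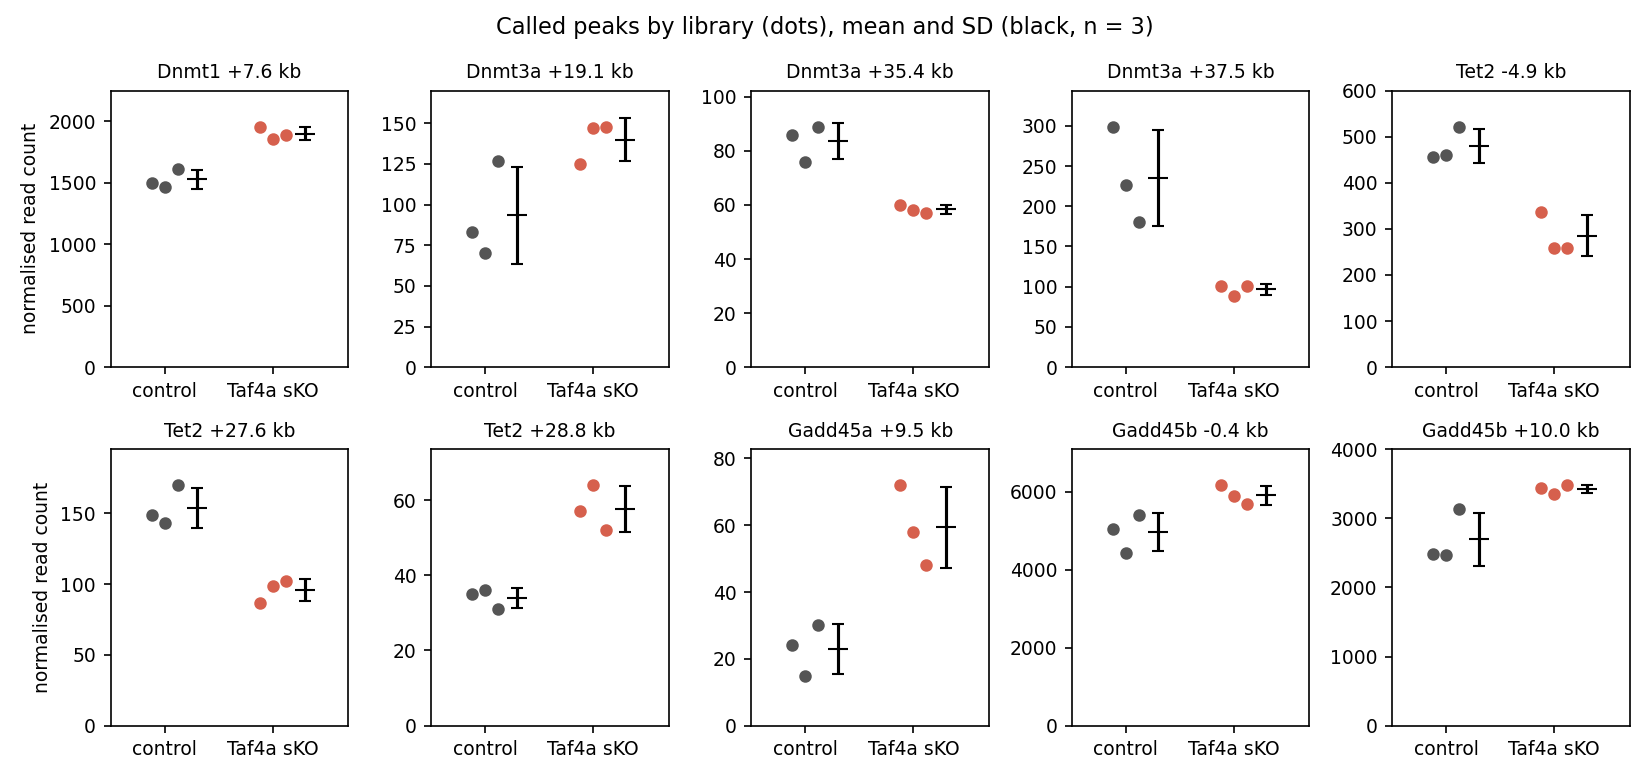
Normalized read counts (y axes, linear from 0, each on its own scale) of the 10 called member peaks are shown for each library as dots, with the mean and SD (n = 3) in black. The genotypes overlap at the higher Dnmt3a peak, with 127 in control 3 against 125 in Taf4a sKO 1, and at no other of the 10.

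Tet2, a dioxygenase that starts oxidation of 5-methylcytosine, changed in both directions away from its start site. A peak 4871 bp upstream of the gene (chr3:133549771-133550248) had 456, 460 and 522 normalized read counts in control and 336, 259 and 259 in Taf4a sKO MuSCs. All Taf4a sKO libraries were lower (fold 0.594, limma log2 fold change -0.76, SE 0.14, adjusted p = 0.000148), and the call held in all 15 alternatives.

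Inside the gene, 2 intronic peaks separated by 893 bp moved in opposite directions. The peak at chr3:133517334-133517770 fell from 149, 143 and 170 in control to 87, 99 and 102 in Taf4a sKO MuSCs (log2 fold change -0.68, SE 0.17, adjusted p = 0.00271 from limma), a call that held in all 15 alternatives. Its neighbour at chr3:133516235-133516440 rose from 35, 36 and 31 to 57, 64 and 52 (log2 fold change 0.74, SE 0.24, adjusted p = 0.0167 from limma). The genotypes did not overlap at either. Without Taf4a sKO 2 the adjusted p of the rise was 0.0782. The sequence windows of both peaks are given above and each holds 1 CAGCTG match.

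The Tet2 start site was not called (chr3:133543872-133545298, values 2631, 2543 and 2986 against 2995, 3021 and 2858, log2 fold change 0.12, adjusted p = 0.34 from limma), but was higher without control 3 (adjusted p = 0.0359). The other 3 Tet2 peaks, all intronic, had log2 fold changes of 0.29, -0.36 and 0.10 and were not called. The intronic peak at chr3:133496965-133497374 was lower under median-of-ratios scaling (log2 fold change -0.47, adjusted p = 0.0137 from limma).

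Tet1 and Tet3, the other dioxygenases of the family, had 1 member peak each and neither was called. The Tet1 peak, intronic, had 107, 132 and 96 normalized read counts in control and 136, 115 and 123 in Taf4a sKO MuSCs, which overlapped. The Tet3 start-site peak (chr6:83455587-83457301) had 1667, 1598 and 1903 against 1685, 1710 and 1720 (log2 fold change -0.01, SE 0.10, adjusted p = 0.945 from limma). It was lower under the total in peaks and under quantile normalization, with log2 fold changes of -0.16 and -0.15 (adjusted p = 0.0158 and 0.0143 from limma). Most of the peaks inside Tet1 and Tet3 were annotated to other genes, none of them protein-coding. Of the 12 peaks of this kind, 7 lay in Tet3, 3 in Tet1 and 2 in Dnmt3a, and 1 was higher and 3 were lower (8.33% and 25%, against 28.0% and 13.9% of all peaks). The higher one, at chr6:83440090-83442079, holds an inner coding start site of Tet3. It had 2431, 2239 and 2861 in control and 3096, 3117 and 3067 in Taf4a sKO MuSCs (log2 fold change 0.31, SE 0.10, adjusted p = 0.0198 from limma), with genotypes apart. Its call ended without any one library other than control 3, with adjusted p up to 0.0895. The peak at chr6:83405303-83406057 in Tet3 fell from 271, 272 and 313 to 161, 143 and 147 (log2 fold change -0.92, SE 0.15, adjusted p = 3.16e-05 from limma). The lower peaks in Dnmt3a and Tet1 had log2 fold changes of -0.52 and -0.34. The Dnmt3a call ended without Taf4a sKO 2 (adjusted p = 0.0723 from limma) and the Tet1 call without Taf4a sKO 1 or 2 (up to 0.080). A peak that holds 2 coding start sites of Tet1 had 1282, 1336 and 1442 in control and 1253, 1237 and 1285 in Taf4a sKO MuSCs, which was not called (log2 fold change -0.10, adjusted p = 0.449 from limma). It was lower under the 3 other scalings, with a log2 fold change of -0.22 and an adjusted p of 0.0094 under median-of-ratios scaling. Of the other uncalled peaks of this kind, 3 in Tet3 and 1 in Dnmt3a were also lower under those 3 scalings.

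**Figure D4:**
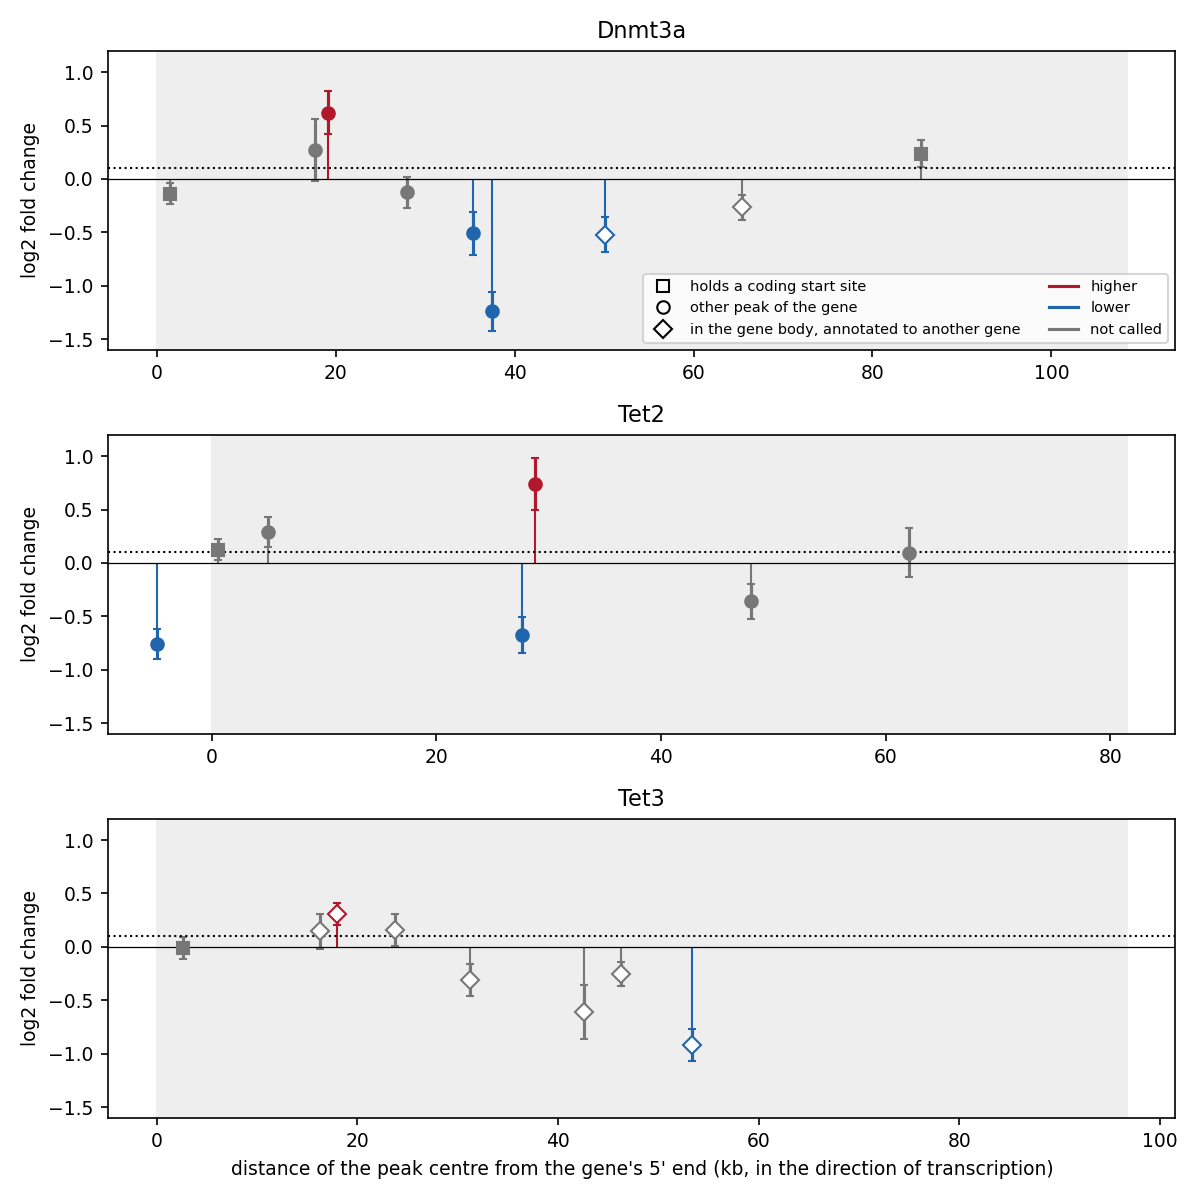
The limma log2 fold change (y axis, bars are standard errors) is plotted against the distance in kb of the peak centre from the 5′ end of Dnmt3a, Tet2 and Tet3, in the direction of transcription, with the gene shaded, filled symbols for members and open diamonds for peaks in the gene annotated to another gene. The start-site squares lie between -0.14 and 0.24 and the widest differences lie inside or upstream of the gene, down to -1.24 in Dnmt3a, -0.76 in Tet2 and -0.92 in Tet3.

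Tdg, the glycosylase that removes oxidised cytosines, had 1 peak, over its start site (chr10:82629305-82630378). It had 1834, 1660 and 2078 normalized read counts in control and 2054, 2006 and 1941 in Taf4a sKO MuSCs. The values overlapped and the peak was not called (log2 fold change 0.11, SE 0.10, adjusted p = 0.418 from limma), but was higher without control 3 (adjusted p = 0.0421).

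The Gadd45 genes had no lower peak, and 3 of their 5 peaks were higher, where 13.9% of all peaks were lower and 28.0% higher. The largest rise of any member was in a weak peak 9497 bp from the 5′ end of Gadd45a and downstream of the gene (chr6:67027810-67028110). It had 24, 15 and 30 normalized read counts in control and 72, 58 and 48 in Taf4a sKO MuSCs. The lowest Taf4a sKO library exceeded the highest control library by a wide margin, the fold was 2.58 and the limma log2 fold change 1.36 (SE 0.29, adjusted p = 0.000655). It was the only gained member and was called in all 14 alternatives that tested it, and it fell below the minimum when that was set to a mean of 50. Gadd45a is a gene induced by DNA damage and growth arrest. Its start-site peak (chr6:67035489-67037727) had 4649, 4224 and 5286 in control and 5963, 5474 and 5297 in Taf4a sKO MuSCs, with genotypes barely apart (log2 fold change 0.25, SE 0.10, adjusted p = 0.0575 from limma). It was higher under the 3 other scalings (adjusted p = 0.00938 under median-of-ratios scaling) and without control 3.

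Gadd45b, its stress-induced paralog, was higher at its start site and at a strong peak downstream. The start-site peak (chr10:80928560-80930812) had 5046, 4442 and 5416 in control and 6177, 5889 and 5684 in Taf4a sKO MuSCs (fold 1.19, log2 fold change 0.26, SE 0.10, adjusted p = 0.0417 from limma). The groups were apart, but leaving out a library ended the call in 5 of 6 cases, with adjusted p up to 0.164. The peak 10049 bp from the 5′ end (chr10:80939051-80941193) had 2484, 2473 and 3140 against 3439, 3359 and 3482 (fold 1.27, log2 fold change 0.35, SE 0.11, adjusted p = 0.00929 from limma). Without control 1 its adjusted p was 0.079. The intronic peak of Gadd45b had 390, 342 and 416 against 411, 496 and 428 and was not called.

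By role, the 12 peaks of Dnmt1, Dnmt3a, Dnmt3b and Uhrf1 held 2 higher and 2 lower, the 9 peaks of the Tet genes 1 higher and 2 lower, and the 6 peaks of Tdg and the Gadd45 genes 3 higher and 0 lower, beside 28.0% higher and 13.9% lower among all peaks. These counts are with the authors' normalization. Under the 3 other scalings the Dnmt3a 5′ end, Dnmt3b and the Dnmt1 peak at 20944735 were also lower. Uhrf1 was lower under the total in peaks and quantile normalization, and the Dnmt1 peak at 20943237 under the latter. The Tet2 peak at 133496965 was lower and the Gadd45a start site higher under the 3 scalings. The Tet3 start site was lower under the total in peaks and quantile normalization. Differences between these groups were not tested.

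Other genes of the pathway were read from 4 lists. They comprised methyl-CpG readers (8 of 10 genes with a peak), cofactors of the enzymes (15 of 18), base excision repair (13 of 15) and the supply of methyl groups (16 of 17), with 103 peaks annotated by symbol. Of these 23 were higher and 7 lower (median log2 fold change 0.08), shares of 22.3% and 6.80% against the 28.0% and 13.9% given above. These were with the authors' normalization. Under median-of-ratios scaling, the total in peaks and quantile normalization, 19, 26 and 30 were lower and 19, 17 and 14 higher. Over all peaks the lower calls were then 16943, 19464 and 18894 and the higher 19090, 17664 and 18697. Most readers had no called peak, with 2 of 13 higher and 0 lower, and the 2 were Mbd2 and Zbtb38, both methyl-CpG-binding proteins. The Mbd2 peak went from 741 ± 101 (SD, n = 3) to 905 ± 30.3 and the Zbtb38 peak from 814 ± 111 to 987 ± 22.9, both small changes. Both calls ended under the total in peaks, under quantile normalization, without the robust option of the moderation and without any one library other than control 3, with adjusted p up to 0.394 for Mbd2 and 0.339 for Zbtb38, and that of Mbd2 also under median-of-ratios scaling (0.0635, limma).

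Of the cofactors, 7 of 26 peaks were higher (26.9%) and 2 lower (7.69%), against 28.0% and 13.9% of all peaks. A peak at Idh2, which encodes the mitochondrial isocitrate dehydrogenase that supplies the TET cosubstrate 2-oxoglutarate, rose from 134 ± 7.9 (SD, n = 3) to 264 ± 10.1 (log2 fold change 0.97). One at Gadd45g, the third Gadd45 gene, rose from 956 ± 94.6 to 1675 ± 98.1 (0.81). Cxxc5, which encodes a CpG-binding zinc finger protein, fell from 124 ± 24.0 to 72.7 ± 4.6 (-0.75), and Gadd45gip1, whose product is also a mitochondrial ribosomal protein, from 151 ± 18.2 to 112 ± 4.9 (-0.43). The Gadd45gip1 call ended on leaving out any one library, with adjusted p up to 0.127 from limma.

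In base excision repair, 3 of 27 peaks were higher (11.1%) and 2 lower (7.41%), against 28.0% and 13.9% of all peaks. A peak 7818 bp from the start site of Ogg1, which excises 8-oxoguanine, fell from 207 ± 18.0 (SD, n = 3) to 49.3 ± 7.5, a log2 fold change of -2.05, the largest in any of these lists. Peaks at the uracil glycosylase genes Smug1 and Ung rose by log2 fold changes of 0.65 and 0.51. Both calls ended under the 3 other scalings, with adjusted p of 0.135 and 0.0556 from limma under median-of-ratios scaling. The Smug1 call also ended with a minimum mean of 50, without the robust option of the moderation, and without control 3 or any one Taf4a sKO library (adjusted p up to 0.178), and that of Ung without control 2 or Taf4a sKO 3 (up to 0.222).

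Among genes of methyl group supply, 11 of 37 peaks were higher (29.7%) and 3 lower (8.11%), against 28.0% and 13.9% of all peaks. A peak of Ahcyl1, a relative of the hydrolase below, rose from 75.3 ± 37.1 (SD, n = 3) to 209 ± 24.5, a gained peak with a log2 fold change of 1.56, and one of Nnmt, which uses S-adenosylmethionine to methylate nicotinamide, from 139 ± 22.2 to 298 ± 33.4 (1.10). A peak of Ahcy, which hydrolyses S-adenosylhomocysteine, fell from 96.7 ± 33.5 to 47.7 ± 2.5 (-0.95), and one of Gnmt, which methylates glycine, from 78.7 ± 1.5 to 47.7 ± 3.1 (-0.71). The peaks named here from the 4 lists each lay more than 1000 bp from their start site.

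In base composition, the start-site members had a median of 10.2 CpG dinucleotides per 100 bases in their central 300 bases, against 8 for all peaks near a start site. The other members had 1.33, the same as peaks farther away or without a gene. Here too the members were split by the coding start sites they hold and all peaks by distance. CCAAT was found in 9 of the 27 member windows (33.3%) against 32.2% of all peaks and GGGCGG in 8 (29.6%) against 20.03%. TGANTCA, the AP-1 type motif, and CAGCTG were each found in 6 (22.2%), against 22.0% and 29.1%. TTTNNCGC, the E2F type motif, was found in 2 (7.41%) against 3.82%. All motifs were read on both strands, and matches of different motifs may share bases. RefSeq held 15 promoters of these 10 genes and 14 lay in a peak.

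The labels were checked at the targeted gene and at cell type markers. A peak centred in a coding exon of Taf4a, listed as Taf4 (chr2:179922849-179923263), had 65, 78 and 137 normalized read counts in control and 44, 22 and 25 in Taf4a sKO MuSCs (log2 fold change -1.58, SE 0.30, adjusted p = 0.000336 from limma). The fold was 0.325, and reads remained in each Taf4a sKO library. Whether this exon is among those removed by the recombination was not examined. The Taf4 promoter peak was not called (2226 ± 201 against 2108 ± 14.8). The other 3 Taf4 peaks had log2 fold changes of 0.55 upstream and of -0.49 and -0.83 inside the gene. All 10 MuSC marker genes had a peak within 1000 bp of their start site, and their summed level per kb was 11938 to 14591 in control and 13347 to 14428 in Taf4a sKO libraries. Cdh15, a cadherin of MuSCs, had the highest. Among them Pax7 was lower (log2 fold change -0.32) and Vcam1 higher (0.35). The Pax7 call ended without any one library other than control 2 (adjusted p up to 0.325 from limma), and that of Vcam1 under the total in peaks and quantile normalization and without Taf4a sKO 1 or 2 (up to 0.275). Myf5 and Sdc4 were lower under the 3 other scalings only or also without 1 library. Their log2 fold changes were -0.34 and -0.17 under median-of-ratios scaling (adjusted p = 0.00021 and 0.0149 from limma). Megf10 was lower under the total in peaks.

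Of 9 activation and differentiation markers, Myod1 and Mymk were higher (0.29 and 1.49) and Myog and Acta1 lower (-0.86 and -0.67), with a summed level per kb of 6487 to 7358 in control and 6276 to 7011 in Taf4a sKO libraries. The Myod1 call ended under the total in peaks and without control 1 or Taf4a sKO 1 or 3 (adjusted p up to 0.182 from limma). Of these 9, Ccna2 had the highest level. Ccnd1, Mki67 and Ccna2 were not called with the authors' normalization but were lower under the 3 other scalings. Their log2 fold changes were -0.34, -0.19 and -0.16 under median-of-ratios scaling (adjusted p = 0.00579, 0.00938 and 0.0126 from limma). Of 12 markers of other cells, 6 had no peak in the table, among them Ptprc (CD45), Ly6a (SCA1), Adgre1, Cd3e and Rgs5. The other 6 summed to 3104 to 3835 per kb in control and 3082 to 3325 in Taf4a sKO libraries. Pdgfra and Dpt, genes of fibroblast-like cells, were lower (-0.68 and -0.47), and 1 of the other 4 was higher. The Pdgfra call ended under quantile normalization and without control 1, control 2 or Taf4a sKO 2 (adjusted p up to 0.205 from limma). Whether these shifts had a part in the differences at the methylation genes was not tested.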

How the data were processed

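ATAC-seq of 3 control and 3 Taf4a sKO libraries was analysed. The authors trimmed reads with Trimmomatic 0.39, aligned them with STAR 2.7.11b to mm10, filtered duplicates with Picard 3.1.1, called peaks per sample with MACS, merged them and counted reads with featureCounts. A shift for Tn5 insertion was not described. The deposited values are scores: the authors' counts multiplied by a depth factor (1.39, 1.00 and 1.23 in control, 1.39, 1.37 and 1.29 in Taf4a sKO) and rounded. As they are not raw counts, limma 3.58.1 (R 4.3.3) was used on log2(value + 1), with trend and robust options of the moderation, and p-values were adjusted (Benjamini-Hochberg) across 75384 peaks whose mean exceeded 10; a peak was called at an adjusted p under 0.05. The authors made their own contrasts with DESeq2, which were not used. On simulated data the fit was checked. No per-sample column was left unused.

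The members and lists were chosen with earlier results of these data known. Named genes were all members, Taf4, the 2 largest rises and falls called in each pathway list, and the 3 start-site peaks most like the member with the smallest adjusted p. Cell type markers came from lists of their own. Those named were the called ones, those called under another scaling, the one with the highest level and some without a peak. Some of the genes and sequences so chosen are not reported here. Members, features and start sites came from the table and GENCODE vM21, sequences from GRCm38 and RefSeq. Correlations of log2 values were 0.980 to 0.989 between control and 0.986 to 0.988 between Taf4a sKO libraries. The sources used here do not say whether equal replicate numbers name littermates, so libraries were not paired. Precision is limited by 3 libraries per genotype. Alternatives covered the scaling, the pseudocount, the minimum, the moderation, the members and each library left out.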

Additional observations from a re-analysis of the deposited data

How the results depend on the processing

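The members called higher (6) numbered 3 to 10 and those called lower (4) 3 to 4 when 1 library was left out, and the lower calls numbered 8 under median-of-ratios scaling, 10 under the total in peaks and 11 under quantile normalization. They came to 1 with members by symbol only and to 7 with the peaks annotated to another gene, a choice made after seeing the data. The pathway peaks called higher (23) numbered 14 under quantile normalization and 14 to 36 without a library, and those called lower (7) numbered 19, 26 and 30 under the 3 scalings in that order. Lower calls over all peaks (10476 of 75384 tested) numbered 16943, 19464 and 18894 in that order. The median of the members (0.11) was -0.00024, -0.036 and -0.0038 in that order, 0.035 to 0.19 without a library and -0.011 with the other-gene peaks. With a minimum mean of 50, 0 members were gained, and at a threshold of 1.5-fold 2 were gained and 3 lost. Sign changes were limited to peaks that were not called. Tdg was -0.00024, -0.036 and -0.025 under the 3 scalings, the Tet2 start site -0.024 under the total in peaks, the Tet2 peak at 133482854 -0.015 and -0.050 under the first and second scaling and the intronic Gadd45b peak -0.0038 under quantile normalization. Without a library the Tet2 peak at 133482854 ranged from -0.16 to 0.29, the Dnmt1 peak at 20943237 from -0.21 to 0.029, the Dnmt3a peak at 3823557 from -0.016 to 0.46 and the Tet3 start site from -0.063 to 0.063. The cause of these changes was not tested. Same-numbered libraries did not deviate together (r = 0.110, -0.118 and -0.0289), so the numbers do not pair them. With a replicate block 5 members were called higher and 3 lower; the calls of Dnmt3a at 3841257 and of the Gadd45b start site ended (adjusted p = 0.0555 and 0.0666).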

Other observations

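The surroundings of the genes were read after the data had been seen, as the peaks within 100 kb on either side of each gene and outside it, without the member peaks described above. Member peaks so left out lay upstream of Tet2 (lower) and downstream of Gadd45a and of Gadd45b (both higher). These regions can hold other genes, and their counts are descriptions without a test of the region. The counts are those with the authors' normalization. At Gadd45a, 8 of 14 downstream peaks were higher and 0 lower, and 7 of 11 upstream peaks were higher and 2 lower, against 28.0% and 13.9% of all peaks. The strongest of the gained downstream peaks, at chr6:66992101-66992906, went from 510 ± 115 (SD, n = 3) to 1028 ± 64.1 normalized read counts (log2 fold change 1.03, adjusted p = 4.32e-06 from limma). Under median-of-ratios scaling its log2 fold change was 0.92 (adjusted p = 9.05e-06 from limma).

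Of 2 peaks downstream of Tet2 both were lost, the nearer one at chr3:133462432-133462742 falling from 59 ± 10.4 (SD, n = 3) to 11 ± 1 (log2 fold change -2.31, adjusted p = 3e-06 from limma) and the other at chr3:133394635-133395380 from 563 ± 36.3 to 183 ± 9. Of 4 upstream peaks that were not members 2 were lower. All counts around these genes stand beside 28.0% higher, 13.9% lower, 7.02% gained and 5.36% lost among all peaks. Around Uhrf1 4 of 9 downstream peaks were lower and 1 higher and upstream 0 of 9 were higher and 1 lower. Upstream of Gadd45b 1 of 13 peaks was higher and 6 were lower, 3 of them lost, whereas downstream 5 of 11 were higher and 2 lower, with 2 gained and 1 lost. Downstream of Dnmt1 4 of 12 peaks were higher and 1 lower, and upstream 2 of 8 were higher and 0 lower. Downstream of Dnmt3a 4 of 9 were higher and 1 lower, and upstream 0 of 3 were called. Around Dnmt3b 1 of 5 downstream peaks was higher and 0 lower, and upstream 2 of 9 were higher and 2 lower. Around Tet1 1 of 3 downstream peaks was lower and 0 of 3 upstream were called. Under median-of-ratios scaling the upstream peaks at chr10:62920128-62921302 and chr10:62946740-62947482 were lower (log2 fold change -0.25 and -0.30, adjusted p = 0.00546 and 0.00967 from limma). At Tet3 1 of 5 downstream peaks was higher and 1 lower, and 0 of 5 upstream were called. At Tdg 1 of 5 downstream peaks was higher and 2 lower, and the 1 upstream peak was not called. Under median-of-ratios scaling further peaks were also lower downstream of Dnmt1, Dnmt3a, Dnmt3b, Uhrf1, Tet3 and Gadd45b. The same held upstream of Dnmt3b, Uhrf1 and Tet2, and some higher calls downstream of Dnmt1 and Dnmt3a ended.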
